A study of Mus musculus with 8 samples.

Results

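Copying a genome requires a helicase to open the double strand, polymerases to copy it and a supply of deoxynucleotides, and 42 genes that make these parts were read here in regulatory T (Treg) cells that carry or lack the calcium sensors Stim1 and Stim2. The 42 genes were taken by symbol from a table of 52459 genes and described one by one across 4 groups of cells. They are the Mcm2-7 helicase and its partners (Cdc45, the GINS subunits and Mcm10), the licensing factors Orc1, Orc6, Cdc6 and Cdt1, subunits of DNA polymerases alpha, delta and epsilon with primase, the sliding clamp Pcna and its loader replication factor C, replication protein A, the lagging strand enzymes Lig1 and Fen1, 5 genes of deoxynucleotide supply, and both large subunits of the chromatin assembly factor CAF-1. All 42 were listed, and 41 of them had a mean of at least 10 normalized counts over the libraries and were tested, as were 15419 genes in all. Fen1, the flap endonuclease that trims lagging strand fragments, held 2.1 to 11.9 normalized counts per library and was not tested. Its RefSeq locus overlaps that of Tmem258, and how the counting treated overlapping genes is not given in the sources used here.

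In a resting cell the origins of replication are not loaded. When a lymphocyte is driven to divide, the origin recognition complex, Cdc6 and Cdt1 place the Mcm2-7 ring on DNA in G1, and Cdc45 and GINS turn it into the active helicase in S phase. Most of these genes are classical targets of the E2F transcription factors, which are held in check by the retinoblastoma family until the cell commits to a cycle. Stim1 and Stim2 sense the calcium store of the endoplasmic reticulum and open the store-operated calcium entry on which T cell receptor signals depend.

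RNA was sequenced from CD4+CD25hi Treg cells of C57BL/6 mice, in 2 libraries for each of 4 groups. Cells labelled WT and cells labelled Stim1 fl/f and Stim2 fl/fll with Foxp3-YFPcre (alleles spelled as deposited), called Stim1/2-deficient here, were either left unstimulated or kept for 16 h on plates coated with anti-CD3/CD28 at 1 µg/ml. Per the methods, both kinds of cell were sorted from pooled spleen and lymph nodes of female mice heterozygous for the Foxp3-driven Cre, WT cells as YFPcre negative and deficient cells as YFPcre positive, so that every comparison of genotypes is also one of cells without and with the Cre allele in use. The age of the mice is not given in the sources used here. Unstimulated WT cells have replicates 3 and 4 and each other group replicates 1 and 2, and the methods give a pool of mice for each sample. Whether samples of different groups came from the same pool is not stated in the sources used here. The 4 unstimulated libraries carry the tag of sequencing lane 4 and the 4 stimulated ones that of lane 1, so that stimulation and lane cannot be told apart.

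Values are normalized counts, which are reads of a gene over the size factor of the library. The libraries held 11851853 to 16306540 reads on genes, and 1 read was worth 0.759 to 1.48 normalized counts. A gene was called when limma, fitted on log2 of the value plus a pseudocount of 1, gave an adjusted p (Benjamini-Hochberg) under 0.05 and the change exceeded 1.5-fold. All fold changes below are log2 values of this fit, from 2 libraries against 2. Whole-gene counts do not separate the deleted exons of Stim1 and Stim2, and neither gene was called between genotypes: Stim1 held 1139 and 1377 normalized counts in unstimulated WT cells against 1538 and 1868 in deficient cells, and Stim2 held 906 and 908 against 904 and 744. Directions are therefore those of the libraries as labelled. Markers of other cells also differed between libraries. The sum of 8 macrophage and myeloid genes was 152 and 177 normalized counts in unstimulated WT cells and 9102 and 1338 in deficient cells. After stimulation it was 109 to 216. C1qa was at 0 in all libraries but the deficient unstimulated ones. The sum of 6 B cell genes was 261 and 253 against 2435 and 529 in unstimulated cells. In stimulated cells it was 811 and 153 in WT and 1170 and 238 in deficient cells. A sum of 4 CD8 T and NK cell genes was 299 and 248 against 759 and 266 without stimulation, and 370 and 202 against 802 and 245 after it. The 6 Treg genes summed to 85605 to 91902 in WT and 40109 to 47805 in deficient unstimulated cells. Of these, Ctla4 (log2 fold change -1.79, limma adjusted p = 0.0271) and Ikzf2 (-1.13, adjusted p = 0.0142) were called lower, while Foxp3 (-0.98, adjusted p = 0.0591), Il2ra (-0.65, adjusted p = 0.081), Cd4 (-0.20, adjusted p = 0.618) and Cd3e (-0.12, adjusted p = 0.721) were not. The part of these markers in the results below was not tested. In bulk RNA, fewer cells of a type and less RNA per cell cannot be told apart.

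Promoters of 35 of the 42 genes could be matched by symbol in RefSeq (GRCm38.p6), 40 promoters in all. Of these, 4 are shown for the letters to which E2F factors bind. Beside them is 1 of a gene that hardly differed between genotypes, taken from the genes without these letters. The sense strand is printed 5′ to 3′, with capitals for E2F letters (TTTCGCGC, TTTGGCGC, TTTCCCGC or TTTGCCGC) and for CCAAT, the box bound by NF-Y, on either strand. The 160 bases of Mcm5 (chr8:75109308-75109467, plus strand) end 41 bases before the annotated start, those of Mcm6 (chr1:128359706-128359865, minus strand), Gins3 (chr8:95633399-95633558, plus strand), Rfc3 (chr5:151651209-151651368, minus strand) and Rfc4 (chr16:23127731-23127890, minus strand) end at it.
Mcm5: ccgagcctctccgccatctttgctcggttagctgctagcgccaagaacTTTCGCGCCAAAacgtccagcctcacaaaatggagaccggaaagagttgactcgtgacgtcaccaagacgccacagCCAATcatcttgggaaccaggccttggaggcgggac
Mcm6: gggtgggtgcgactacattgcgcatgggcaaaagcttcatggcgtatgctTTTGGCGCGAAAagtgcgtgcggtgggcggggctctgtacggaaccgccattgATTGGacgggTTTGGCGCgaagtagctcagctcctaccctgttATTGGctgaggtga
Gins3: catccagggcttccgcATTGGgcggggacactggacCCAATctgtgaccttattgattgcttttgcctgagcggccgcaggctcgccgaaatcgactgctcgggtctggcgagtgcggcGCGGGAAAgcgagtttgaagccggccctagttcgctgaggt
Rfc3: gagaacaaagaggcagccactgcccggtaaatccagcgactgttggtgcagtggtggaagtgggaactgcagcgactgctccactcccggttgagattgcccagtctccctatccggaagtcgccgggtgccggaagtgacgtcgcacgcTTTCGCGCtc
Rfc4: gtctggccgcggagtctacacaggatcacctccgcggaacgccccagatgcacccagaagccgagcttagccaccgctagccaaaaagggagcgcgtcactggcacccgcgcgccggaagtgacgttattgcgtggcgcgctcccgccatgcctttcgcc
Mcm5 and Mcm6 each held a pair of overlapping E2F matches on opposite strands, starting 153 and 149 bases before the start in Mcm5 and 110 and 106 bases before it in Mcm6, and Mcm6 held another at 47 bases. Gins3 and Rfc3 held 1 match each, at 41 and 10 bases, and the Rfc4 stretch held neither E2F nor CCAAT letters. Cdc6, Pola1, Orc1 and Mcm7 also held E2F letters, in bases that lie within an annotated gene span and are not shown.

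In unstimulated cells, replication genes were lower in Stim1/2-deficient than in WT Treg cells. Of the 41 genes tested, 40 had a lower mean in deficient cells, and 18 were called lower and 0 higher, where 3.35% of all 15419 genes were called lower. The tool edgeR called 15 lower, where it called 2.29% of all genes lower, and DESeq2 22, where it called 5.25%. Each called 0 of the 41 higher. The median log2 fold change of the 41 genes was -1.11, against -0.01 for all genes. Both deficient libraries lay below both WT libraries for 39 of the 41 genes, against 27.1% of all genes, and only Cdt1 and Rfc4 overlapped between genotypes. Calls fell on 5 of 6 genes of the Mcm2-7 ring, on 3 of 6 of Cdc45, GINS and Mcm10, on 3 of 5 of nucleotide supply, on 2 of 4 each of licensing and polymerase alpha-primase, and on Pole, Lig1 and Chaf1a. None of the 6 genes of the clamp and its loader and none of the 3 of replication protein A were called. The count of 18 calls rested on the WT libraries: it was 0 without WT replicate 3 and 3 without WT replicate 4, when calls over all genes fell from 517 lower to 8 and 16, and 11 and 10 without stimulated WT replicates 1 and 2, which enter through the shared spread. The median was -0.93 without WT replicate 3 and -1.34 without WT replicate 4. Without deficient replicate 1, the library with most macrophage transcripts, 16 genes were called at a median of -1.20, and without deficient replicate 2 also 16, at -1.28.

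**Figure D1:**
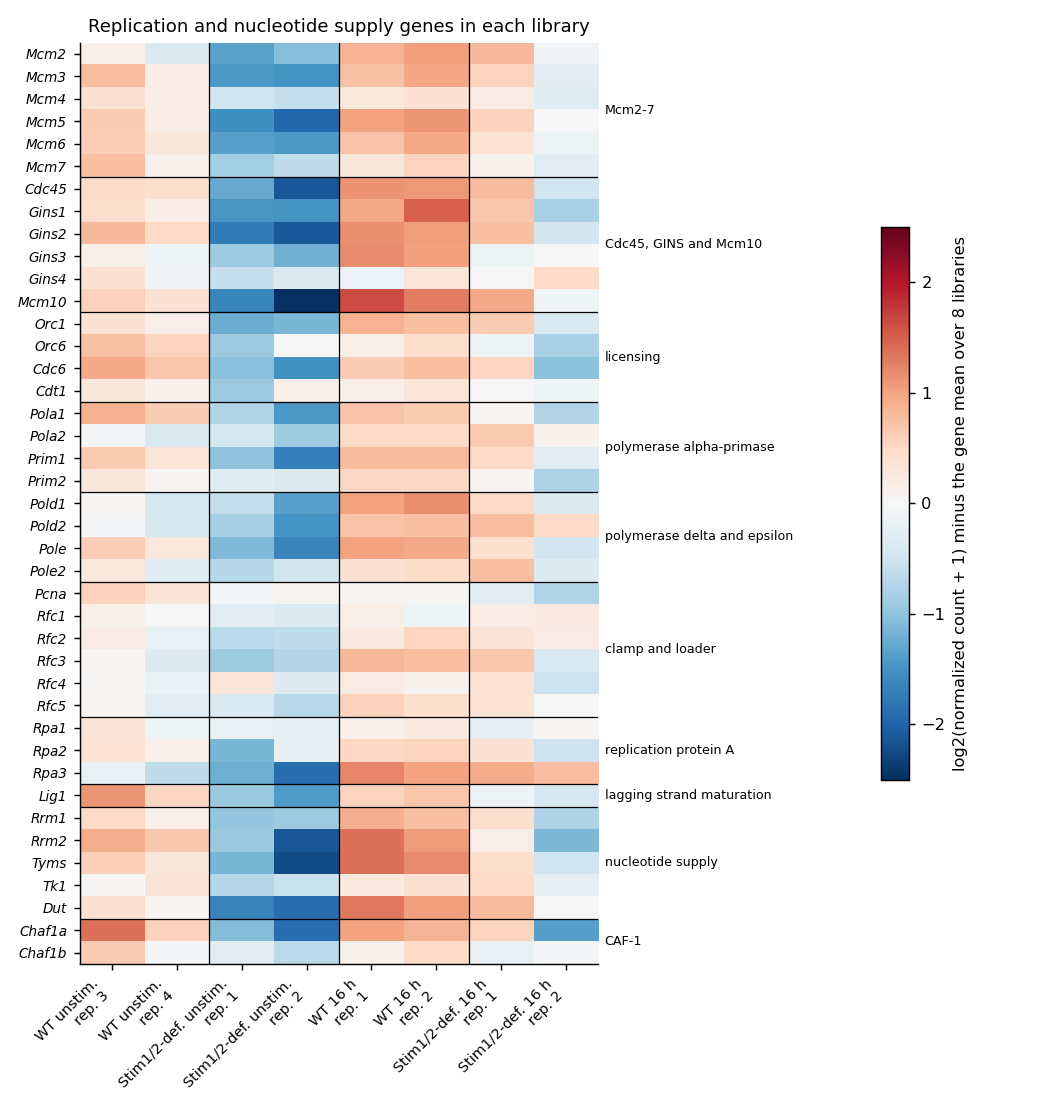
Each row is 1 of the 41 tested genes and each column 1 of the 8 libraries. Colour is the log2 value (normalized count plus 1) minus the mean of that gene over the 8 libraries, red above and blue below it (the darkest blue also stands for the value of Mcm10 beyond the scale), with complexes separated by lines. The deficient unstimulated columns are the bluest, and replicate 2 of that group was the lowest of 8 libraries for 26 genes.

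The Mcm2-7 ring unwinds DNA at the fork, and all 6 of its subunits were lower in deficient unstimulated cells without overlap, 5 of them called. Mcm5 held 982 and 719 normalized counts in WT and 220.2 and 163 in deficient cells (log2 fold change -2.14, standard error 0.27, limma adjusted p = 0.0057). After stimulation Mcm5 held 1286 and 1365 in WT and 949 and 632 in deficient cells. Mcm5 thus lay higher in both stimulated deficient libraries than in the unstimulated ones of that genotype, and below WT in each state. Mcm6 held 4249 and 3389 against 1078 and 1026 (log2 fold change -1.85, standard error 0.21, limma adjusted p = 0.00416), and 4573 and 5324 against 3524 and 2545 after stimulation. Mcm3 held 2112 and 1402 against 457 and 435 (log2 fold change -1.94, standard error 0.29, limma adjusted p = 0.00966), and 2033 and 2392 against 1807 and 1019.9 after stimulation. The stimulated deficient replicate 2 was the lower of its group for each of these 3 genes and lay below both stimulated WT libraries. Mcm7 held 890.3 and 570.2 against 288 and 339 (log2 fold change -1.19, standard error 0.26, limma adjusted p = 0.0361), and 642 and 775 against 562 and 436 after stimulation. Mcm4 held 3499.7 and 3062 against 1902 and 1798 (log2 fold change -0.82, standard error 0.20, limma adjusted p = 0.0468), and 3225 and 3467 against 3122 and 2195 after stimulation. Mcm4 had the smallest change of the ring and was called in 5 of the 18 alternative fits, whereas Mcm5 and Mcm6 were called in 17. Mcm2 was not called (log2 fold change -1.09, standard error 0.29, limma adjusted p = 0.0633), although its libraries did not overlap. The locus of Mcm7 overlaps that of Ap4m1 and the miRNA genes Mir25, Mir93 and Mir106b, and reads shared between them cannot be told apart here.

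Cdc45 and the 4 GINS subunits join the ring to make the active helicase, and Mcm10 supports that step. The 6 genes were all lower in deficient unstimulated cells, 3 of them called, and Mcm10 had the largest decrease of the 41 genes. Mcm10 held 309.7 and 264 normalized counts in WT and 66.1 and 24 in deficient unstimulated cells (log2 fold change -2.81, standard error 0.47, limma adjusted p = 0.0146), and 637 and 500.4 against 399 and 190.0 after stimulation. The deficient replicate 2 was far below replicate 1 in unstimulated cells, and the log2 fold change of Mcm10 ranged from -3.52 to -2.10 with each library left out in turn. Gins2 held 379 and 304 against 62.9 and 49.4 (log2 fold change -2.58, standard error 0.37, limma adjusted p = 0.00882), and 482 and 445 against 364 and 156 after stimulation. Cdc45 held 241 and 226 against 71.3 and 38.7 (log2 fold change -2.13, standard error 0.43, limma adjusted p = 0.0252), and 375 and 364 against 295 and 121 after stimulation. For both, the groups did not overlap in either state. Gins1 (-1.78), Gins3 (-1.06) and Gins4 (-0.63) were not called, at limma adjusted p = 0.0626, 0.103 and 0.24. Loci of Gins2 and Cdc45 overlap those of Gse1 and Ufd1.

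Orc1 belongs to the complex that marks origins and Cdc6 recruits the helicase to it, and both were called lower in unstimulated cells, in contrast to Orc6 and Cdt1. Cdc6 held 358 and 299.9 normalized counts in WT and 89.1 and 64.1 in deficient cells (log2 fold change -2.10, standard error 0.44, limma adjusted p = 0.0291), and 288 and 311 against 267 and 90.3 after stimulation. Orc1 held 288 and 251 against 94.4 and 102 (log2 fold change -1.45, standard error 0.33, limma adjusted p = 0.0383), and 409.9 and 379.6 against 351 and 172 after stimulation. In stimulated deficient cells the pair of libraries lay far apart for both genes, with replicate 1 near WT and replicate 2 well below it. Orc6 was not called (log2 fold change -1.11, limma adjusted p = 0.079). Cdt1, the loading factor that geminin restrains, held 444 and 390.0 against 194 and 398 in unstimulated cells, where deficient replicate 2 fell among the WT values (log2 fold change -0.58, limma adjusted p = 0.313).

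Polymerase alpha and primase start each new strand with a short primer, and polymerases delta and epsilon extend it. All 8 genes were lower in deficient unstimulated cells without overlap, 3 of them called, namely the catalytic subunits Pola1, Prim1 and Pole. Pola1 held 2369.8 and 1989.8 normalized counts in WT and 760.2 and 475 in deficient cells (log2 fold change -1.85, standard error 0.29, limma adjusted p = 0.0113), and 2093 and 2031 against 1329 and 770.0 after stimulation. Prim1 held 812 and 632 against 255 and 156 (log2 fold change -1.84, standard error 0.31, limma adjusted p = 0.0156), and 888 and 894 against 728 and 421 after stimulation. Pole held 954 and 752 against 290.5 and 199 (log2 fold change -1.81, standard error 0.31, limma adjusted p = 0.0154), and 1253 and 1201 against 834 and 447 after stimulation. The 3 genes were lower in both deficient libraries than in both WT libraries of each state. Pold1, the catalytic subunit of polymerase delta, had a log2 fold change of -0.78 and was not called (limma adjusted p = 0.26). The accessory subunits Pola2, Prim2, Pold2 and Pole2 ranged from -0.92 (Pold2) to -0.46 (Pola2).

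The clamp Pcna tethers polymerases to DNA, and replication factor C loads it. Their 6 genes had a median log2 fold change of -0.43 in unstimulated cells, with 0 called by limma, edgeR or DESeq2 and 1 lower at an unadjusted p under 0.05 and more than 1.5-fold. Pcna held 2073 and 1724 normalized counts in WT and 1332 and 1446 in deficient cells (log2 fold change -0.45, limma adjusted p = 0.245). Rfc4 held 341 and 297 against 409 and 266 and was the one gene with a higher mean in deficient cells (0.05, limma adjusted p = 0.949), which became -0.26 without deficient replicate 1 and -0.05 without WT replicate 4. Deficient replicate 1 was the highest and replicate 2 the lowest of these 4 values. The loader subunits Rfc1, Rfc2, Rfc3 and Rfc5 ranged from -0.68 (Rfc3) to -0.39 (Rfc1). Replication protein A, which coats single-stranded DNA, also had 0 of 3 genes called by the 3 tools and 2 lower at an unadjusted p, with Rpa3 at -1.15, Rpa2 at -0.92 and Rpa1 at -0.32. Pcna has annotated pseudogenes, and the Rfc4 locus overlaps that of Eif4a2, so that their counts are uncertain where reads are shared.

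Lig1 joins the fragments of the lagging strand and was called lower. It held 1924 and 1304 normalized counts in WT and 474 and 334 in deficient unstimulated cells (log2 fold change -1.99, standard error 0.26, limma adjusted p = 0.00593), and 1323 and 1444 against 833 and 659 after stimulation. The groups did not overlap in either state, and the gene was called in 17 of the 18 alternative fits. Chaf1a, the large subunit of CAF-1, which places histones on new DNA, held 376 and 214 against 67.1 and 37.4 (log2 fold change -2.48, standard error 0.56, limma adjusted p = 0.0382), and 291 and 261 against 210.4 and 54.9 after stimulation. WT replicate 3 was the highest of all 8 libraries, and the log2 fold change of Chaf1a ranged from -2.89 to -2.06 with each library left out in turn. Chaf1b was not called (-0.77, limma adjusted p = 0.189).

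Transcripts of the deoxynucleotide supply genes were lower as well, with 3 of 5 genes called in unstimulated cells. Rrm2, the regulatory subunit of ribonucleotide reductase that limits the enzyme in S phase, held 1209 and 1024 normalized counts in WT and 337 and 144 in deficient cells (log2 fold change -2.33, standard error 0.44, limma adjusted p = 0.0209), and 1669 and 1338 against 715 and 295 after stimulation. Tyms, which makes thymidylate, held 604 and 489 against 180.4 and 84.1 (log2 fold change -2.13, standard error 0.39, limma adjusted p = 0.0189), and 1048 and 909 against 544 and 284 after stimulation. Dut, which keeps dUTP out of DNA, held 851 and 674 against 204 and 174 (log2 fold change -2.001, standard error 0.28, limma adjusted p = 0.00803), and 1630.5 and 1348 against 1130.0 and 658 after stimulation. All 3 genes lay lower in both deficient libraries of each state. The catalytic subunit Rrm1 missed the threshold (log2 fold change -1.25, standard error 0.32, limma adjusted p = 0.0554). Tk1, thymidine kinase of the salvage route, was not called (log2 fold change -0.81, limma adjusted p = 0.108).

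**Figure D2:**
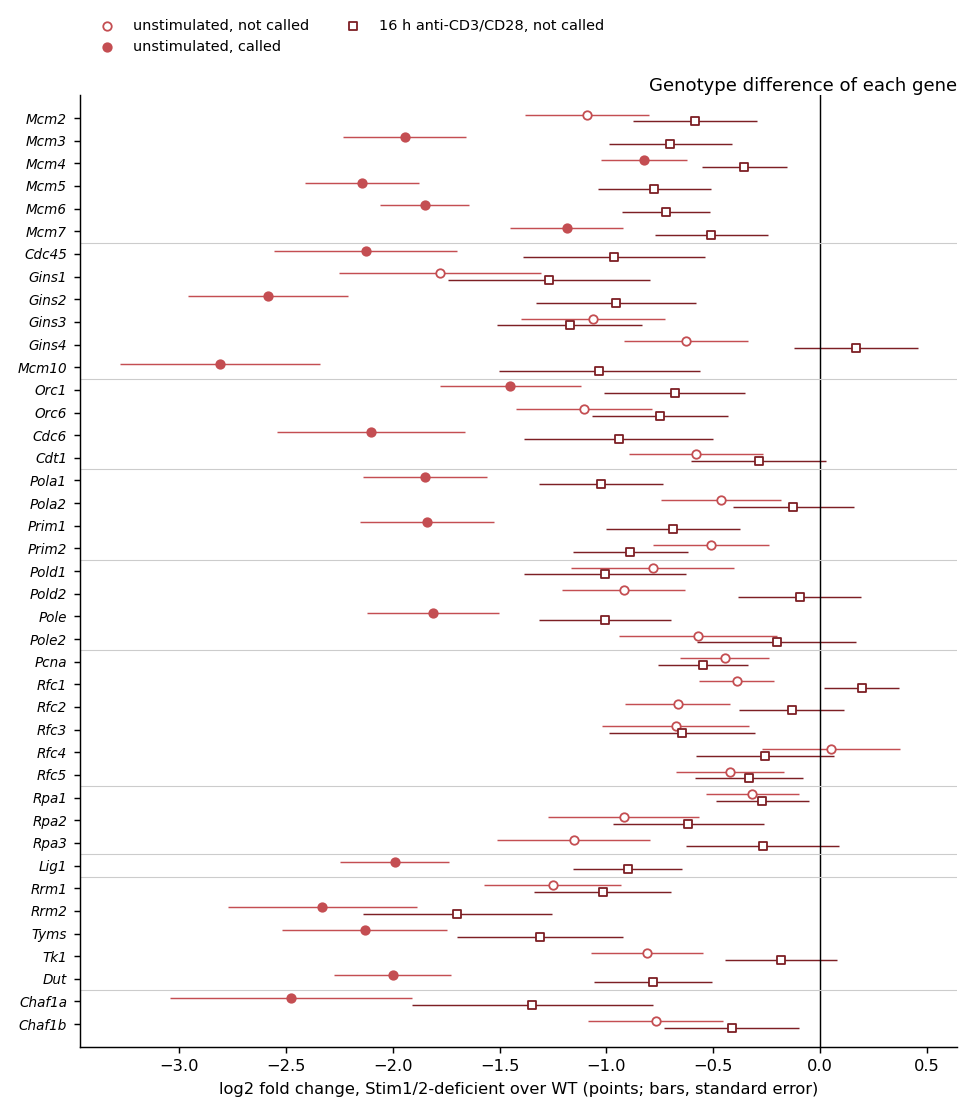
Each row is a gene, in the order of the complexes, with the log2 fold change of Stim1/2-deficient over WT cells on the x axis and bars of 1 standard error of the limma fit. Circles are unstimulated and squares stimulated cells, filled where called. Only circles are filled, 18 of them, and most squares lie nearer to 0.

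After 16 h of stimulation most of the replication genes had a lower mean in deficient cells, but none passed the threshold in the main fit. Of the 41 genes, 39 had a lower mean, 0 were called by limma (0.11% of all genes were called lower), and the median log2 fold change was -0.69. At an unadjusted p under 0.05 and more than 1.5-fold, 18 were lower, where 1072 of all 15419 genes were. On the recovered reads, edgeR called 0 and DESeq2 4 of the 41 lower, where DESeq2 called 287 of all 15419 genes lower. With a replicate block, limma also called 4 lower, where it called 202 of all genes lower. Both deficient libraries lay below both WT libraries for 33 genes, against 23.1% of all genes, and both lay above for Rfc1. Rrm2 had the largest difference (log2 fold change -1.70, standard error 0.44, limma adjusted p = 0.123), and Rfc1, the large loader subunit, the most positive one, with 1634 and 1376 normalized counts in WT and 1685 and 1751 in deficient cells (log2 fold change 0.20, standard error 0.18, limma adjusted p = 0.687). The overlapping genes were Gins4, Pola2, Pold2, Pole2, Rfc2, Rfc4 and Tk1. Deficient replicate 2 lay below replicate 1 for 36 of 41 genes, with a median difference of -0.79 on the log2 scale. The median genotype difference was -1.07 without replicate 1 and -0.32 without replicate 2, so that the size of the difference rested on which deficient library was used.

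The 2 genotype comparisons share no library, though whether they share pools of mice is not stated. Lower without overlap in both were 32 of the 41 genes. Over all genes the shares were 27.1% in unstimulated and 23.1% in stimulated cells, and the share in both was not counted. Across the 41 genes, which are not independent, the log2 fold changes of the 2 states had a Pearson correlation of 0.73, given as a description.

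In WT cells, 6 of the 41 genes were called higher with stimulation and 0 lower, and the mean was higher for 32 genes and lower for 9. The median log2 fold change was 0.38 against 0.01 for all genes. Over all genes, 10.2% were called higher and 13.1% lower. At an unadjusted p under 0.05 and more than 1.5-fold, 10 of the 41 were higher and 0 lower. Of all 15419 genes, 2565 were higher and 2849 lower at that cut. The tools edgeR and DESeq2 also called 0 of the 41 lower, where they called 1911 and 2256 of all genes lower. The called genes were Rpa3, Pold1, Gins3, Mcm2, Dut and Pold2. Rpa3, the smallest subunit of replication protein A, had the largest increase, from 80.9 and 59.1 to 217 and 186 normalized counts (log2 fold change 1.53, standard error 0.36, limma adjusted p = 0.0142). Mcm2 rose from 1202 and 854 to 1989.8 and 2246 (log2 fold change 1.06, standard error 0.29, limma adjusted p = 0.0257). Both stimulated libraries lay above both unstimulated ones for 26 genes, where 35% of all genes did so. They lay below for Orc6 and Pcna, where 36% of all genes did so. Pcna went from 2073 and 1724 to 1448 and 1403 (log2 fold change -0.41, limma adjusted p = 0.184), which became 0.11 with the libraries rescaled to equal totals. That scaling moved the median of all genes to 0.52, the median of the 41 genes to 0.90 and the number called higher to 20, with calls over all genes then 81.4% higher against 44.0% here. Relative to all genes, the median of the 41 was 0.38 under both scalings. With any 1 WT library left out, 0 genes were called.

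In deficient cells, 17 of the 41 genes were called higher with stimulation and 0 lower. Over all 15419 genes, 1997 (13%) were called higher and 1855 lower. Among the 41, the mean was higher for 37 genes and lower for 4. The median log2 fold change was 0.99 against -0.03 for all genes. At an unadjusted p under 0.05 and more than 1.5-fold, 29 were higher and 0 lower. Of all 15419 genes, 2821 were higher and 2780 lower at that cut. The tools edgeR and DESeq2 called 0 of the 41 lower, where they called 1867 and 2181 of all genes lower. Mcm10 rose most, from 66.1 and 24 to 399 and 190.0 normalized counts (log2 fold change 2.75, standard error 0.47, limma adjusted p = 0.00319). Rpa3 rose from 38.8 and 24 to 176 and 158 (log2 fold change 2.41, standard error 0.36, limma adjusted p = 0.00172) and Dut from 204 and 174 to 1130.0 and 658 (log2 fold change 2.19, standard error 0.28, limma adjusted p = 0.000862). Gins2, Mcm5, Cdc45, Pold2, Tyms, Mcm3, Mcm2, Mcm6, Prim1, Pole, Orc1, Pola2, Rfc2 and Lig1 were the other called genes, with log2 fold changes from 2.08 (Gins2) down to 0.89 (Lig1). Both stimulated libraries lay above both unstimulated ones for 32 genes, against 30.8% of all genes. Pcna was again the lowest, going from 1332 and 1446 to 1156 and 822 (log2 fold change -0.51, limma adjusted p = 0.1). The count was 9 without stimulated replicate 1 and 27 without stimulated replicate 2. Rescaled to equal totals it was 33, at a median of 1.38 for the 41 genes and 0.35 for all genes, with calls over all genes then 77.9% higher against 51.8% here.

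**Figure D3:**
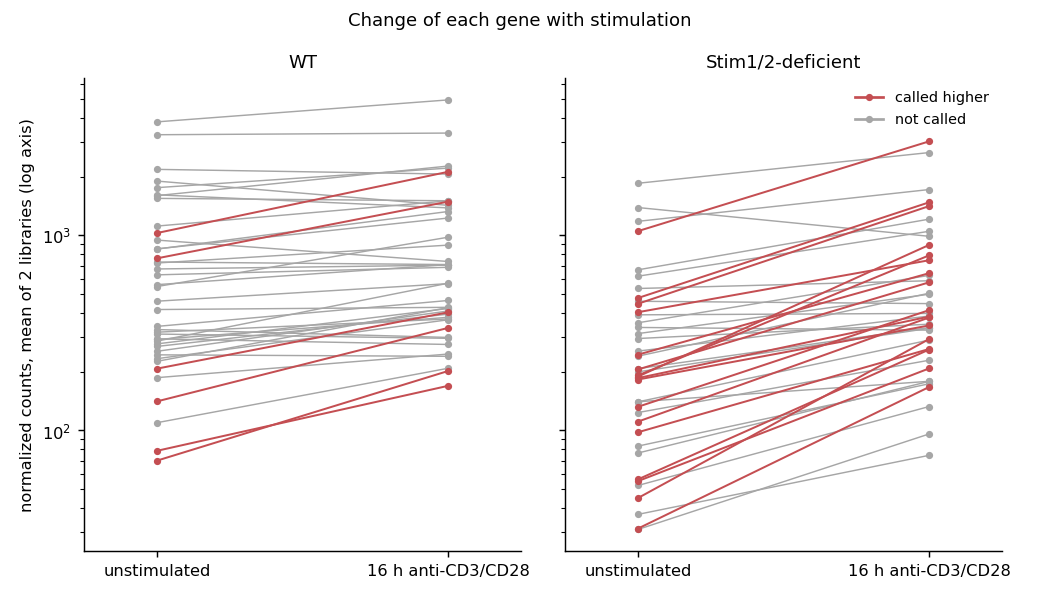
Each line is 1 of the 41 genes and joins its mean normalized count of 2 libraries (y axis, log scale) in unstimulated and in stimulated cells, WT on the left and Stim1/2-deficient on the right. Red lines are the 6 and 17 genes called higher. The deficient lines start lower than the WT lines.

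Of the genes called higher, 4 were called in both genotypes and 13 in deficient cells alone. Being past the threshold in 1 genotype is no test of a difference, and the difference of the responses was tested as the interaction. It was positive for 36 of 41 genes, with a median of 0.63 against 0.05 for all genes, yet 0 were called, as over all genes (0%), and the lowest adjusted p was 0.556 (limma). The tools edgeR and DESeq2 also called 0 of the 41. At an unadjusted p under 0.05 and more than 1.5-fold, 9 were higher, where 4.57% of all genes were. Mcm10 had the highest value (log2 fold change 1.78, standard error 0.67, limma adjusted p = 0.569). Prim2, the regulatory primase subunit, had the lowest (log2 fold change -0.38, standard error 0.38, limma adjusted p = 0.809), with 601 and 517 and 708 and 709 normalized counts in WT cells before and after stimulation and 398 and 385 and 508 and 288 in deficient cells. Its sign rested on stimulated deficient replicate 2, without which it was 0.030. The median of the 41 was 0.26 without stimulated deficient replicate 1 and 0.95 without replicate 2.

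As a sum, the 42 genes held 36073 and 28866 normalized counts in unstimulated WT cells and 14477 and 13703 in deficient cells. After stimulation they held 39281 and 40144 in WT and 31454 and 20675 in deficient cells. The sums overlapped in neither state, and the 2 stimulated deficient libraries were the most unequal pair. Markers of proliferating cells were lower in deficient cells as well. The sum of Mki67, Ccna2, Ccnb1, Cdk1, Aurkb and Plk1 was 19377 and 15518 in WT and 5449 and 1563 in deficient unstimulated cells, and 11134 and 9674 against 4045 and 1477 after stimulation. All 6 of these genes were called lower in deficient unstimulated cells, with Mki67 at -2.55 (limma adjusted p = 0.0369). Most of each sum was Mki67. It held 17091 and 13862 normalized counts in unstimulated and 8559.9 and 7417 in stimulated WT cells (log2 fold change -0.95, limma adjusted p = 0.256). In deficient cells it held 4924 and 1400 before and 2925 and 913 after stimulation (log2 fold change -0.68, limma adjusted p = 0.406). The other genes of the sum had a higher mean after stimulation in deficient cells. Of these, Cdk1 and Ccnb1 were called higher (2.24 and 1.52, limma adjusted p = 0.0284 and 0.0423). Ccna2, Aurkb and Plk1 were not (1.34, 1.41 and 0.83, limma adjusted p = 0.077, 0.0632 and 0.187). The part of cycling cells in the values of the replication genes was not tested.

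**Figure D4:**
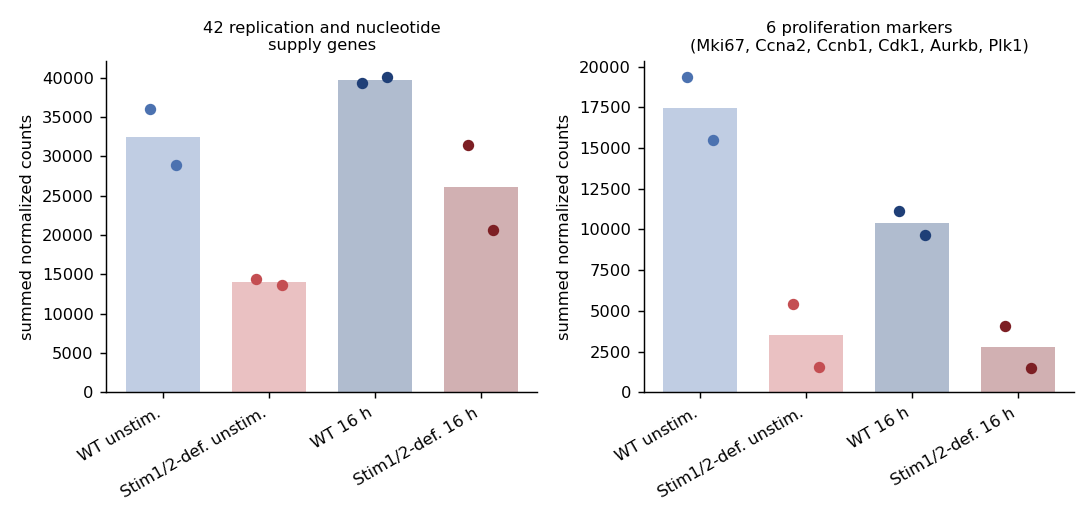
Summed normalized counts (y axis) of the 42 replication and nucleotide supply genes on the left and of 6 proliferation markers on the right, for the 4 groups. Points are libraries and bars the mean of 2 libraries. The left sums fell to 14477 and 13703 in unstimulated deficient cells, and the right ones are lower in both deficient groups. Mki67 makes up most of each right sum.

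Other genes of the same processes were counted from 7 lists, beside 3.35% of all genes called lower between unstimulated genotypes. Of 35 further fork and origin genes, 28 had a lower mean in deficient unstimulated cells and 8 were called lower (Clspn, Top2a, Ticrr, Tipin, Dscc1, Atad5, Gmnn and Pole3), 0 higher, at a median of -0.68. Clspn, an adaptor of the checkpoint at stalled forks, had the largest decrease, from 1177 and 863 to 214 and 69.5 normalized counts (log2 fold change -3.04, standard error 0.57, limma adjusted p = 0.0201). Of 17 E2F and pocket protein genes, 5 were called lower (E2f8, E2f7, E2f2, Tfdp1 and E2f3) and 0 higher, led by E2f8 (log2 fold change -2.88, standard error 0.40, limma adjusted p = 0.00841). E2f7, a repressive member of the family, was the only gene of the 7 lists called in stimulated cells, with 185 and 225 normalized counts in WT and 54.8 and 49 in deficient cells (log2 fold change -1.96, standard error 0.32, limma adjusted p = 0.0446). In that comparison edgeR called 0 of the 106 tested genes of the lists and DESeq2 6 lower and 1 higher, and limma called 0 when stimulated deficient replicate 2 or any WT library was left out. Of 9 chromatin assembly genes, 5 were called lower, led by Uhrf1 (log2 fold change -2.73, standard error 0.50, limma adjusted p = 0.0189), the factor that guides maintenance methylation.

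Other parts of nucleotide metabolism had few calls between genotypes. The 16 further deoxynucleotide genes had a median of -0.40 in unstimulated cells. Of 12 tested genes of purine synthesis and 5 of pyrimidine synthesis, 0 were called by limma or edgeR in either state, at medians of -0.42 and -0.30 in unstimulated cells, where 5 and 1 were lower at an unadjusted p and DESeq2 called 3 and 1. Of 12 polymerases and ligases of repair and translesion synthesis, 0 were called by the 3 tools at a median of 0.01, and 1 was lower at an unadjusted p. Together, 20 of the 106 tested genes of the lists were called lower and 0 higher in unstimulated cells, at a median of -0.42, with 0 called without either WT replicate, 9 without stimulated WT replicate 1 and 6 without stimulated WT replicate 2. With stimulation, 24 of the 106 were called higher and 9 lower in WT cells, and 43 higher and 6 lower in deficient cells. Over all 15419 genes, 1580 were called higher and 2013 lower in WT cells, and 1997 higher and 1855 lower in deficient cells. Dna2, a nuclease of flap processing, rose by 2.00 in WT and 3.31 in deficient cells (limma adjusted p = 0.00273 and 0.000283).

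In the 250 bases before the start, E2F letters occurred in 8 of 40 promoters of the replication genes (20%) and in 1.86% of 32851 promoters of all genes. CCAAT occurred in 57.5% against 33.8%, the cell cycle homology letters (TTTGAA or TTCGAA) in 17.5% against 17.1% and the NFAT core (GGAAAA) in 17.5% against 20.4%, all on both strands. The 8 genes with E2F letters were Cdc6, Gins3, Mcm5, Mcm6, Mcm7, Orc1, Pola1 and Rfc3, and 6 of them were called lower in unstimulated cells, at a median log2 fold change of -1.65. The 26 tested genes without these letters had a median of -1.004 and 9 calls, among them Mcm10, the largest decrease of all. Split by CCAAT, the median was -1.22 for 22 genes with it (11 called) and -0.78 for 12 without (4 called). For the cell cycle homology letters it was -1.08 with and -1.20 without, and for the NFAT core -1.18 and -1.12. These differences were not tested. Rfc4, chosen for print among the genes without a match, had a log2 fold change of 0.05, and Rfc3, with a match, -0.68. A match describes letters only, and no binding was measured.

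**Figure D5:**
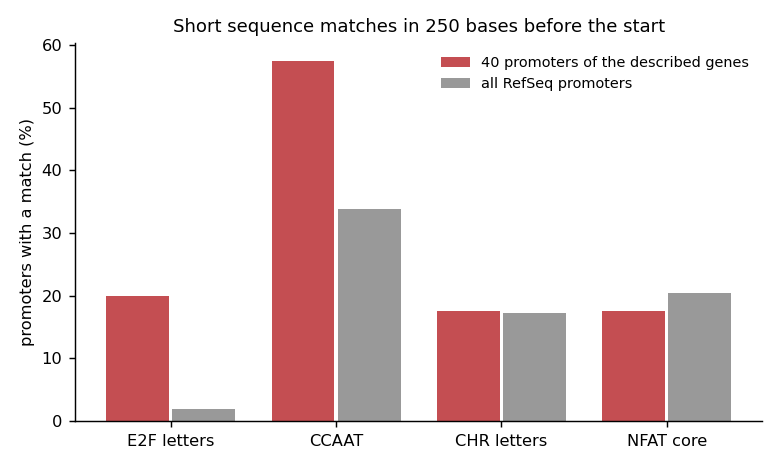
Share of promoters (y axis, percent) that hold each set of letters in the 250 bases before the annotated start, for the 40 promoters of the replication genes in red and all 32851 RefSeq promoters in grey. E2F letters are at 20% against 1.86%, CCAAT at 57.5% against 33.8%, and the NFAT core at 17.5% against 20.4%.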

How the data were processed

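The 8 libraries hold RNA of sorted mouse Treg cells, 2 per genotype and stimulation state. In the deposited table each signal value is a count of reads on a gene, scaled by the authors with a size factor of that library and rounded to 2 decimals. Division by the worth of 1 read gave a whole number for 100% of the values, within 0.006 normalized counts of a multiple of it. The sources differ on the steps before: the methods name alignment to NCBIM37 with Bowtie, removal of duplicates and counting with HTSeq, and the submitters' processing notes name bcl2fastq 1.8.4, STAR 2.7, DESeq2 and mm10. The methods and the labels also name kits that differ in whether strand is kept, so reads of overlapping genes may be shared. Positions and promoters are those of RefSeq GRCm38.p6, joined by symbol.

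A pseudocount of 1 was added, and log2 values of the 15419 genes with a mean of at least 10 entered a limma 3.58.1 fit (R 4.3.3; lmFit, then eBayes with trend) with a mean for each of the 4 groups. Contrasts were genotype in each state, stimulation in each genotype, and the interaction. The 2-sided p was adjusted by Benjamini and Hochberg over all genes tested, and calls needed an adjusted p under 0.05 and 1.5-fold. An exact permutation test of 2 against 2 libraries cannot go below 0.333 and was not used. The smallest depth was 11851853 reads, and 3 reads equalled 2.28 to 4.43 normalized counts. Alternatives were other pseudocounts, filters and scalings, recovered reads tested with the quasi-likelihood test of edgeR 4.0.16 or with DESeq2 1.42.0, the 4 libraries of a contrast, a replicate block, other thresholds and each library left out. The 42 genes, the 7 lists of other genes and the tests were chosen with earlier results of these data known. Values per library are given for those of the 42 genes called between genotypes and for the extremes of each contrast. Only some of the called genes of the lists are named, and promoters are shown by size of decrease among those with E2F letters. Protein sequences were not used here, and some genes of the deoxynucleotide list are not reported here.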

Additional observations from a re-analysis of the deposited data

Results flagged for a closer look

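Rfc1, the large subunit of the clamp loader, was noted because the genotype difference had opposite directions in the 2 states: both deficient libraries lay below both WT libraries without stimulation (1212 and 1149 against 1615 and 1480.1 normalized counts) and above them after it (1685 and 1751 against 1634 and 1376). The difference of the 2 log2 fold changes was 0.59 (standard error 0.25, limma adjusted p = 0.59), and the interaction was not called. No other of the 41 tested genes lay apart in opposite directions.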

How the results depend on the processing

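The direction of the median of the 41 genes was kept in every contrast under each alternative run. Counts at an unadjusted p kept the threshold of 1.5-fold. At that cut, 1705 of all 15419 genes were lower between unstimulated genotypes. In unstimulated cells the 18 genes called lower between genotypes became 29 at an unadjusted p, and from 0 to 21 with each library left out. In stimulated cells, 0 became 4 with DESeq2 and 18 at an unadjusted p, where 287 and 1072 of all genes were lower. The median there ran from -1.07 to -0.32 with each library left out. Stimulation in WT cells had 6 of the 41 genes called higher, which became 1 with every gene above 0 tested, 14 from the 4 libraries of the contrast, 20 with equal totals (median 0.90), 10 at an unadjusted p, and 0 to 7 with each library left out. In deficient cells the 17 became 10 from the 4 libraries, 33 with equal totals (median 1.38) and 29 at an unadjusted p, and 9 to 27 with each library left out (median 0.61 to 1.33). The interaction had 9 genes higher at an unadjusted p, and a median of 0.26 to 0.95 with each library left out. Among the genes given with a fold change for being called or at the extreme of a contrast, the direction changed for Pcna in stimulated WT cells (0.11 with equal totals), Prim2 in the interaction (-0.79 to 0.030 with each library left out, positive without stimulated deficient replicate 2) and Rfc4 between unstimulated genotypes (-0.26 to 0.36, negative without deficient replicate 1 or WT replicate 4). Over all 41 genes, leaving out a library gave either sign for 1 gene between unstimulated and 7 between stimulated genotypes, 11 and 4 for stimulation of WT and deficient cells and 15 in the interaction, none of them called there. The cause was not tested.

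A replicate block could be fitted where groups share numbers 1 and 2. Over all tested genes, same-numbered libraries deviated together only weakly (correlation 0.17 between stimulated genotypes and 0.26 within deficient cells), with 2 pairs each. In each group with these numbers, however, replicate 1 held more B cell transcripts than replicate 2. The sums were 2435 and 529 in unstimulated deficient, 811 and 153 in stimulated WT and 1170 and 238 in stimulated deficient cells. Whether the numbers mark pairs is not stated in the sources used here, and the main fit took none. With the block, 4 genes were called lower between stimulated genotypes, and calls over all genes rose from 17 lower and 25 higher to 202 and 191. Within deficient cells the block left the count within 1.5 times. Each group has 2 libraries, so that differences near the spread of a pair were not detectable, and Fen1 was too low to test.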

Other observations

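Samhd1, which breaks down deoxynucleotides and so acts against the supply genes, was the gene of the 7 lists with the highest log2 fold change between stimulated genotypes, chosen after its values were seen. It held 16418 and 18965 normalized counts in stimulated WT and 29493 and 41454 in stimulated deficient cells (log2 fold change 0.99, standard error 0.20, limma adjusted p = 0.0661), without overlap, and 12503 and 12016 against 11079 and 12085 in unstimulated cells, where the groups overlapped (log2 fold change -0.08, standard error 0.20, limma adjusted p = 0.853). With stimulation it was called higher in deficient cells (log2 fold change 1.60, limma adjusted p = 0.000819) and not in WT cells (0.53, limma adjusted p = 0.081), and the difference of these responses was not called (log2 fold change 1.07, standard error 0.28, limma adjusted p = 0.556).

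Recql4, a helicase of origin firing, had the lowest value of the lists between stimulated genotypes, with 88.1 and 115 normalized counts in WT and 65.9 and 5.91 in deficient cells (log2 fold change -2.24, standard error 0.83, limma adjusted p = 0.259). The lower of its deficient values rests on few reads.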
